A study of Mus musculus with 1392 samples.

Results

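The Runx1 locus was followed in old and young haematopoietic stem cells by single-cell ATAC-seq, which counts where a transposase can cut chromatin. The locus was taken as every peak of the deposited table that overlapped mm9 chromosome 16 from 92570000 to 92900000, and 30 of 115295 peaks did so. This interval of 330 kb holds the Runx1 gene body, stated as about 92601000 to 92826000 on the minus strand, and some sequence on either side of it. The promoter P1 was taken near 92826000 and the proximal promoter P2 near 92697000, 129 kb further down the gene. Both positions are approximate, and distances below run from the stated P1 position to a peak's midpoint. The nearest protein-coding neighbours in RefSeq are Clic6 and Setd4.

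Old cells formed 3 sets and young cells 2. All cells came from bone marrow of C57BL/6 mice and were sorted as lineage-negative, Sca-1+, Kit+, CD150+, CD48-, CD34- and Vwf+, a stem cell fraction inclined towards platelets. The labels give neither ages in months nor what reports Vwf, and they leave unsaid what a numbered set is (1 mouse, pooled mice or 1 plate). Each set was treated as 1 replicate, and p-values cover just the differences among sets, which may be technical. Effects of age and of how the sets were prepared cannot be told apart. The 1060 old and 332 young cells held 1640887 to 4181770 counts per old set and 1159957 to 2589894 per young set. Values of the sets of an age are listed below by set number. Median counts per cell were 9623, 4434 and 3604.5 in the old sets, and 6133 and 11807 in the young sets, so old 1 and young 2 were the deepest.

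RUNX1 is a DNA-binding transcription factor that acts with its partner CBFb. It is needed for blood stem cells to arise from endothelium in the embryo, and in adult marrow for megakaryocyte maturation and lymphoid development. The gene is read from both promoters, and the proteins made differ at their first residues. P1 gives the form that prevails in adult blood stem cells. An enhancer about 23 kb into the first intron, known as +23, is active in the cells from which blood stem cells emerge. The related genes Runx2 and Runx3 and the partner gene Cbfb were not analysed here, since no annotation of the table's build was used. For the same reason the sorted cell type was not checked against its marker genes.

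The promoters differ in sequence, which is shown because the peaks at both are compared below. RefSeq (GRCm38.p6, chromosome 16, minus strand) lists a pair of Runx1 starts, and the one further upstream is P1. The 250 bases before each start are given 5′ to 3′ with every CG pair in capitals.

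P1: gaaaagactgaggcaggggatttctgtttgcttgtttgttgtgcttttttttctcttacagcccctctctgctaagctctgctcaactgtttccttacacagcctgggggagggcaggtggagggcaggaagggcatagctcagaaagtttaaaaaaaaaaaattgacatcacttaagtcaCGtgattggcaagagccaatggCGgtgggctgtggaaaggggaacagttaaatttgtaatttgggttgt
P2: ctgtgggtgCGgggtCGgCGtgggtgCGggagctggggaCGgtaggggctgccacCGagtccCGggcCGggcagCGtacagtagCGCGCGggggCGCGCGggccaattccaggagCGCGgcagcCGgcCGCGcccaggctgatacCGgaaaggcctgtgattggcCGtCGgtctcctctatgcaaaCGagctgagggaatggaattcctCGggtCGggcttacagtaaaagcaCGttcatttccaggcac

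P1 holds 2 CG pairs and P2 holds 27, against a median of 6 over the 32851 promoters of the same table. The share of G and C is 45.6% in P1 and 67.6% in P2. In the window from 250 bases before to 50 after the start, the RUNX motif TGTGGT, read on both strands, matched in P1 at bases 29 and 37 after the start and nowhere in P2. Both matches lie in the last 30 bases of the P1 window, with the motif (here as its reverse complement) in capitals.

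P1 end: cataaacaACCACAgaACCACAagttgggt

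A match of this motif is in 16.8% of all promoters of the table, and 2 or more matches are in 1.78%. The GATA motif AGATAA, the ETS motif GGAAGT and the AP-1 motif TGACTCA, on both strands, matched in neither window. They are in 11.2%, 23.8% and 5.20% of all promoters.

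The locus was rich in accessible sites, with a few peaks that held most of the signal. Cut into tiles of 330 kb, the rest of the genome had a median of 13 peaks per tile, and 81.2% of 6991 tiles with a peak had fewer than 30. The members held 4267 counts in all. The 5 strongest took 67.7% of these, and they were the P1 peak, the larger P2 peak, the peak in the +23 window, a peak 3.45 kb downstream of P1 and one 205 kb downstream, in the body of the gene below P2. Per kb of peak width, levels averaged over the 5 sets were 56.5 CPM (counts per 1000000 counts of the set over all peaks) at the 205 kb peak, 49.1 at the 3.45 kb peak, 39.5 in the +23 window, 35.8 at P1 and 24.4 at the larger P2 peak. The other 25 peaks were weaker, as the map of the locus shows, and 6 of the 30 had no count in at least 1 set.

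**Figure D1:**
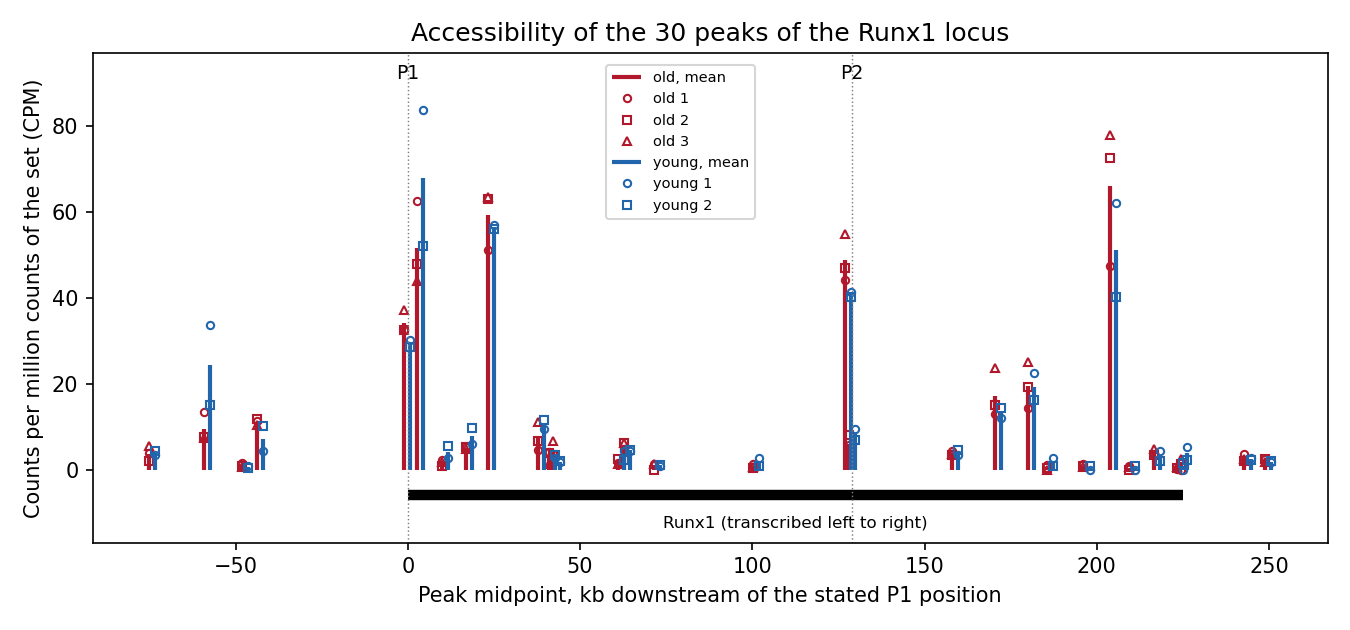
Mean CPM (vertical lines) and the CPM of each set (symbols) for the 30 peaks, against the distance of the peak's midpoint from the stated P1 position in kb. Old and young are shifted slightly apart. The strongest peaks sit just below P1, in the +23 window, at P2 and 205 kb downstream, and the peak 58.2 kb upstream is higher in both young sets than in any old set.

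Accessibility of the locus as a whole did not differ between the ages beyond the spread between sets. The summed peaks held 346.03, 370.2 and 405.9 CPM in the old sets, and 414.7 and 342.1 CPM in the young sets. The lowest and the highest value were both young, so the old range lay inside the young one. The mean was 374.05 ± 30.1 CPM in old sets (SD, n = 3) and 378.4 ± 51.3 in young sets (SD, n = 2). Old over young gave a log2 ratio of -0.017, with p = 0.8 in an exact permutation test (two-sided). With 3 sets against 2 that test cannot go below 0.1. The sign of so small a ratio was not stable, with 0.036 without old 1 and 0.13 without young 1. With set totals rescaled by TMM, as for the fold changes below, the ratio was -0.094 (exact permutation p = 0.6).

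Of the 30 peaks, 13 had enough counts to be tested and 1 was called. It was lower in old cells, and no member was called higher. A call is a Benjamini-Hochberg adjusted p under 0.05 over all 58167 tested peaks, from edgeR's quasi-likelihood test with cells of a set summed. Of all peaks tested, 3.17% were called and 1.78% were called lower in old. One call of 13 rests on a single peak, so no share is read from it. The log2 fold change of old over young was positive in 6 tested members and negative in 7, with a median of -0.021 beside -0.0089 over all tested peaks and 0.015 over the 2003 tested on chromosome 16. The 12 peaks that were not called had log2 fold changes from -0.76 to 0.41 and adjusted p of 0.347 or more.

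The CPM of old and young sets did not overlap in 6 of the 13 tested members, against 33.0% of all tested peaks. Old sets were higher in 4 of these, namely at P1, at the larger P2 peak, at a peak 63.5 kb downstream of P1 and at one 42.9 kb upstream. Old sets were lower in the other two, 17.7 kb downstream and 58.2 kb upstream.

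The called peak lies upstream of the whole gene, at 92883761 to 92884722, 58.2 kb before P1. It had 13.4, 7.53 and 7.31 CPM in the old sets, and 33.6 and 15.1 CPM in the young sets. Every old set was below both young sets, but old 1 and young 2 lay close together and young 1 stood well above the rest. The mean was 9.41 ± 3.45 CPM in old sets (SD, n = 3) and 24.3 ± 13.1 in young sets (SD, n = 2). The log2 fold change was -1.23 with a standard error of 0.33 and a 95% interval of -1.88 to -0.59 (edgeR adjusted p = 0.0230).

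This call rests on few counts and on each of several sets. The peak held 84 counts in old and 78 in young cells, from 116 cells in all, and its 5 highest cells gave 14.2% of them. Without young 1 the log2 fold change was -0.65 (edgeR adjusted p = 0.469), without old 2 it was -1.09 (0.168) and without old 3 -1.07 (0.187), so the call was lost each time. DESeq2 gave -1.36 (adjusted p = 0.201). Expressed as a percentage of the counts of all other members of the same set, which no scaling by the set's total can move, the peak (a measure chosen after the data were seen) had 4.03%, 2.08% and 1.83% in the old sets and 8.82% and 4.60% in the young sets. The ages did not overlap here either. The peak was singled out by its call on these same counts, so this adds no support.

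The share of cells with a count at the upstream peak was also lower in each old set. With every cell thinned to 1906 counts, since depth differed between sets, it was 2.70%, 0.817% and 1.76% of cells in the old sets, and 5.08% and 5.48% of cells in the young sets. These are 6, 3 and 6 old cells and 9 and 8 young cells. Thinning left out 84, 13 and 34 shallower cells of the old sets and 4 and 5 of the young sets. At 2951 counts per cell the shares were 1.98%, 2.00% and 1.62% in the old sets and 9.43% and 6.62% in the young sets. Without thinning they were 12.1%, 3.68% and 2.67% in the old sets, and 16.02% and 17.2% in the young sets. The peak was singled out by its call, so these shares are a description with no test.

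**Figure D2:**
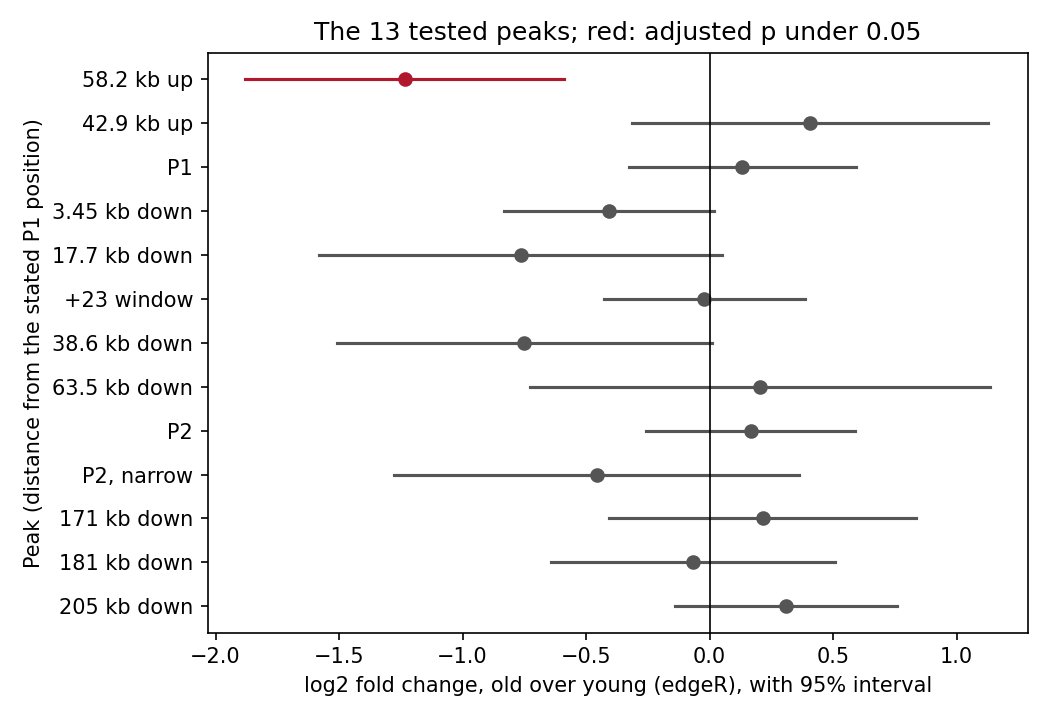
edgeR log2 fold change of old over young (points) with its 95% interval (lines) for the 13 tested peaks, ordered along the gene from upstream at the top. The interval of the peak 58.2 kb upstream ends at -0.59, while those of the other 12 peaks cross 0.

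The distal promoter P1 had a slightly higher CPM in every old set, a difference that did not pass the test. Its single peak, at 92825906 to 92826805, had 32.5, 32.5 and 37.2 CPM in the old sets, and 30.2 and 28.6 CPM in the young sets. All old sets were above both young sets, by a small margin. The CPM scale itself leans slightly towards old. Over all tested peaks the median log2 fold change was 0.089 with library totals, the basis of CPM, against -0.0089 with TMM totals. The means were 34.1 ± 2.70 CPM in old sets (SD, n = 3) and 29.4 ± 1.13 in young sets (SD, n = 2). The log2 fold change was 0.13 with a 95% interval of -0.33 to 0.59 (edgeR adjusted p = 0.849).

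The proximal promoter P2 carried 2 peaks. The larger, at 92697353 to 92699221, had 44.2, 47.04 and 54.8 CPM in the old sets, and 41.4 and 40.2 CPM in the young sets. Its old sets were again all above the young ones, with a log2 fold change of 0.17 and a 95% interval of -0.26 to 0.59 (edgeR adjusted p = 0.777). The narrow peak beside it, at 92696951 to 92697294, had 5.74, 8.00 and 4.27 CPM in the old sets and 9.48 and 6.95 CPM in the young sets. The ages overlapped there, and the log2 fold change of -0.46 had a 95% interval of -1.28 to 0.36 (edgeR adjusted p = 0.657).

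The balance between the promoters differed little between the ages when all cells were used. The log2 ratio of P1 to P2 counts within a set was -0.62, -0.76 and -0.67 in the old sets, and -0.75 and -0.72 in the young sets. The young values lay within the old range. The difference of old minus young was 0.054 (exact two-sided permutation p = 0.5). It depended on the cells used, with 0.30 without cells under 2000 or over 30000 counts (exact permutation p = 0.1, the smallest possible) and 0.72 in thinned cells (exact permutation p = 0.2). It was 0.18 with equal cells per set (exact permutation p = 0.7) and 0.014 with each count taken as present or absent. The thinned value rests on few cells, with a P1 count in 10, 14 and 25 old cells and in 5 and 6 young cells. Cells with a count at both promoters were few at equal depth, with 0, 0 and 4 in the old sets and 0 and 1 in the young sets. Without thinning, 46, 16 and 13 cells of the old sets and 11 and 27 cells of the young sets had a count at both. Old 1 and young 2, with the most counts per cell, had the most such cells.

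In thinned cells P1 had a count in 4.50%, 3.81% and 7.35% of cells in the old sets and in 2.82% and 4.11% of cells in the young sets. P2 had one in 9.46%, 9.54% and 10.3% of old cells and in 7.91% and 14.4% of young cells. The ages overlapped at both. Differences of 1.76 and -1.38 percentage points between the means of old and young sets had exact two-sided permutation p of 0.5 and 0.7. Any member of the locus had a count in 47.3%, 46.3% and 52.9% of old cells and 47.5% and 54.1% of young cells, a difference of -1.93 points (exact permutation p = 0.5). Before thinning the locus was detected in fewer cells of every old set, with 74.8%, 78.2% and 75.9% against 80.7% and 90.1% in the young sets (exact permutation p = 0.1).

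**Figure D3:**
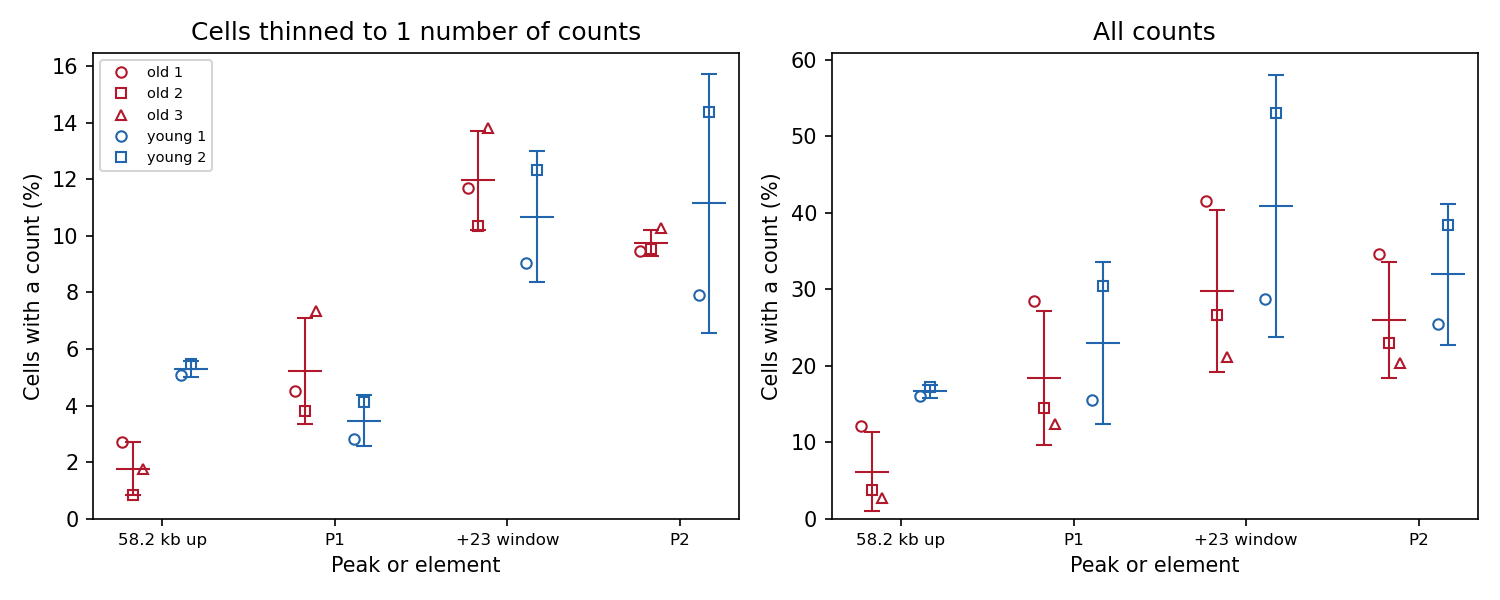
Share of cells in percent with a count at the upstream peak, P1, the peak in the +23 window and P2, with each cell thinned to 1906 counts (left) and with all counts (right). Symbols are sets and bars are mean and SD of 3 old and 2 young sets, and in both panels only the upstream peak keeps all old sets below all young sets.

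Among the enhancer candidates, the peak in the +23 window did not differ between the ages beyond the spread between sets. It lies at 92801023 to 92802493, 24.2 kb downstream of P1, and its identity with the +23 enhancer rests on that distance alone. It had 51.2, 63.04 and 63.4 CPM in the old sets, and 56.9 and 56.0 CPM in the young sets. Both young values lay within the old range. The log2 fold change was -0.021 with a 95% interval of -0.43 to 0.38 (edgeR adjusted p = 0.978), and its sign changed with the scaling, to 0.076 with library totals.

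The peak 3.45 kb downstream of P1, at 92821957 to 92823139, was among the strongest of the locus. It had 62.7, 47.98 and 43.9 CPM in the old sets, and 83.6 and 52.1 CPM in the young sets. Old 1 was above young 2, so the ages overlapped. The log2 fold change was -0.41 with a 95% interval of -0.83 to 0.017 and did not pass (edgeR adjusted p = 0.364). Young 1 was the highest set here and at the upstream peak alike, and without it the log2 fold change at the 3.45 kb peak was -0.068, against -0.72 without young 2.

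The strong peak in the gene body, at 92620822 to 92621884, varied widely between sets of the same age. It had 47.4, 72.4 and 78.0 CPM in the old sets, and 62.1 and 40.2 CPM in the young sets. At each age the deepest set, old 1 or young 2, had the lowest value. The part of depth in this was not tested. The log2 fold change was 0.31 with a 95% interval of -0.14 to 0.76 (edgeR adjusted p = 0.555). It moved with single sets of both ages, with 0.014 without young 2, 0.61 without young 1 and 0.56 without old 1. Without old 2 it was 0.24, without old 3 it was 0.21, and in thinned cells it was 0.12.

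**Figure D4:**
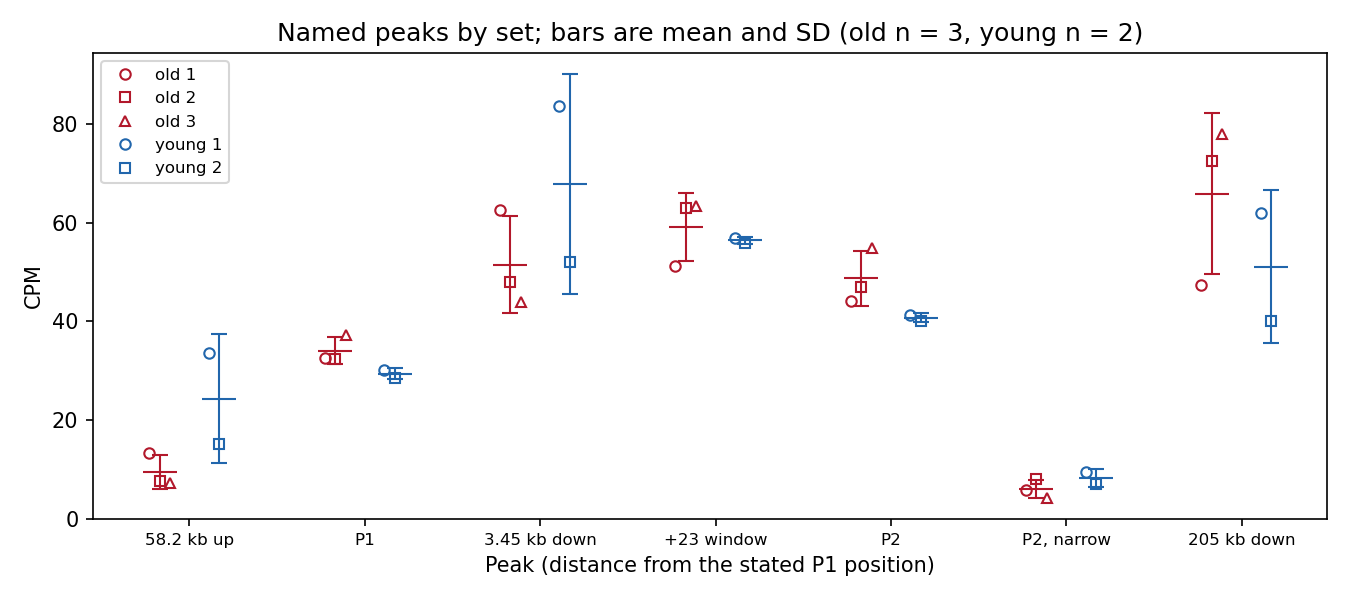
CPM of the 7 named peaks in each set (symbols), with the mean and SD of 3 old and 2 young sets, ordered from upstream of P1 to the gene body. Old sets lie below young sets 58.2 kb upstream, slightly above them at P1 and the larger P2 peak, and overlap with them elsewhere.

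The other 6 tested peaks were weaker than the 5 strongest, and none was called. The most negative of these lay between the promoters. One 17.7 kb downstream of P1 had 5.26, 5.17 and 4.88 CPM in the old sets and 6.03 and 9.65 CPM in the young sets. Its log2 fold change was -0.76 (95% interval -1.58 to 0.050, edgeR adjusted p = 0.378). One 38.6 kb downstream had 4.54, 6.59 and 11.0 CPM in the old sets and 9.48 and 11.6 CPM in the young sets, with -0.75 as its log2 fold change (95% interval -1.51 to 0.010, edgeR adjusted p = 0.347). The ages overlapped at the second but not at the first. Upstream of the gene, the peak 42.9 kb before P1 had 11.2, 11.8 and 10.4 CPM in the old sets and 4.31 and 10.04 CPM in the young sets. The order of the ages was opposite to that at the 58.2 kb peak. The log2 fold change at the 42.9 kb peak was 0.41 (95% interval -0.32 to 1.13, edgeR adjusted p = 0.653). The peaks 63.5, 171 and 181 kb downstream had log2 fold changes of 0.20, 0.21 and -0.067.

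The 17 peaks that were not tested held 6 to 47 counts each and 408 together, 9.56% of the counts of the locus. They were at most 497 bp wide and included all 10 members under 300 bp, while the tested members were 343 to 1868 bp wide. With no count filter all 30 members were tested, and the upstream peak was again the 1 member called, beside 2583 of all 115227 peaks tested. At an unadjusted p under 0.05 there were then 3 members. The share of all peaks under that limit was not computed, so nothing is read from this count.

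Summed by position, old and young sets did not overlap at P1 and in the other peaks between the promoters. They overlapped in the other 5 elements. Of all single peaks tested, 33.0% had sets that did not overlap. That share was not computed for sums, so nothing is read from the number of elements. The exact permutation test cannot go below 0.1 here, so no element could pass, and its p-values do not show that the ages were alike. The other 10 peaks between the promoters held 90.9, 76.7 and 78.6 CPM in the old sets, and 118.1 and 93.1 CPM in the young sets. The 3.45 kb peak, where the ages overlapped, held 668 of the 1050 counts of this sum. Not all of the 10 peaks were lower in old. The sum was lower in every old set than in both young sets. Its log2 ratio was -0.36 (exact permutation test, two-sided, p = 0.2, or 0.42 adjusted over 7 elements). Without young 1 it was -0.18. The 9 peaks from P2 to the end of the gene held 85.6, 115.3 and 137.1 CPM in the old sets and 106.9 and 81.1 CPM in the young sets, a log2 ratio of 0.26 (exact permutation p = 0.4, adjusted 0.467). Without young 2 it was 0.076 and without old 3 it was 0.096. Without young 1 it was 0.47 and without old 1 it was 0.42. The 205 kb peak held 656 of the 1162 counts of this sum. The 4 upstream peaks, which include the called one, held 29.9, 22.1 and 23.8 CPM in the old sets and 42.2 and 29.7 CPM in the young sets, a log2 ratio of -0.51 (exact permutation p = 0.3, adjusted 0.42), and old 1 was level with young 2. Without young 1 this ratio was -0.24. P1 had the smallest possible exact permutation p, 0.1, for a log2 ratio of 0.21 (adjusted 0.42). The P1 ratio was 0.42 without cells under 2000 or over 30000 counts (exact permutation p = 0.1). In thinned cells it was 0.69 (exact permutation p = 0.4), where 5 and 6 young cells had a count at P1. It was 0.12 with binarized cells (a count or none per cell and peak), 0.13 with TMM totals and 0.26 with equal cells per set (exact permutation p = 0.3 in each). P2, the +23 window and the 3 peaks of the 3′ flank had log2 ratios of 0.16, 0.069 and -0.39. With TMM totals the P2 ratio was 0.082 (exact permutation p = 0.4).

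**Figure D5:**
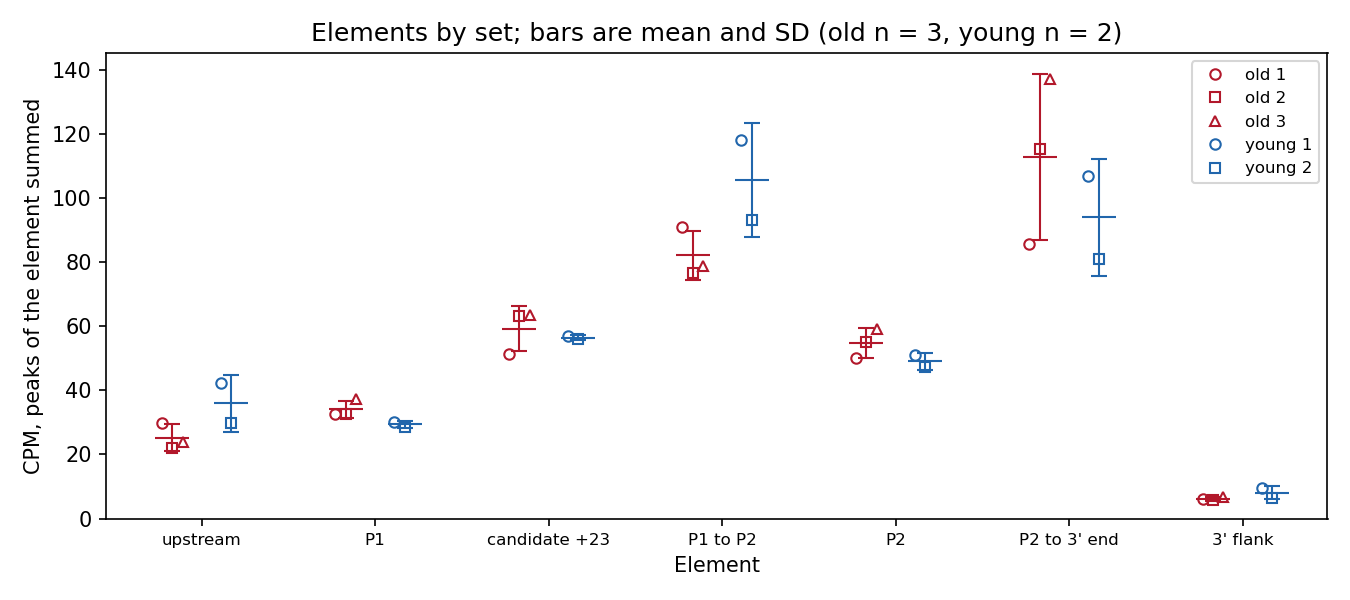
CPM of the summed peaks of each element in each set (symbols), with the mean and SD of 3 old and 2 young sets. Old sets lie above young sets at P1 and below them in the sum of other peaks between the promoters, and the ages overlap elsewhere.

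The 3 tiles of the same width elsewhere in the genome whose summed CPM varied most like the locus over the 5 sets lay on chromosome 7 from 72270001, chromosome 13 from 6600001 and chromosome 17 from 75570001. Their Euclidean distances from the locus in centred log2 CPM were 0.031, 0.044 and 0.050, against a median of 0.358 over the 3332 tiles compared. This likeness was over 5 values and is a description.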

How the data were processed

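Per the labels' protocols, libraries came from a plate-based single-cell ATAC-seq method on sorted cells. The values the authors deposited are unnormalized whole-number counts, 1 per peak and cell. Tools in the submitters' processing notes include Bowtie2, SAMtools, Picard, Trim Galore and FastQC, with the build mm9. Not given in the sources used here are the peak caller, any pooling of cells for calling, and whether reads or fragments were counted. More counts from 1 age could then weigh on which regions became peaks. Whether peak starts count from 0 or 1 is not stated.

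Each column matched 1 sample title. Counts were summed per set and all peaks fitted with edgeR 4.0.16 in R 4.3.3 (TMM, minimum count 10, robust quasi-likelihood). Standard errors are the log2 fold change over the square root of F. The fit was tested on simulated data. CPM is relative to all counts of a set, whereas fold changes use TMM totals. Single values per set were compared by exact permutation over 10 arrangements of the set labels. Intervals cover no more than the spread the model estimates.

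P1, P2 and +23 peaks overlap 2 kb on either side of the stated position. Named are these, every called member and the 5 with the highest mean CPM. The members, elements and lists were chosen with earlier results of these data known. The ages share set numbers 1 and 2, but same-numbered sets were not taken as pairs. Their deviations from the mean of their age correlated at -0.0758 and -0.000706 over all tested peaks. The deviations of the 2 young sets mirror each other, and noise of low counts draws such values towards 0. They therefore do not settle whether the numbers mark pairs. Alternatives concern the test (DESeq2 1.42.0), scaling, count filter, cells, depth, window, block and each set left out.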

Additional observations from a re-analysis of the deposited data

How the results depend on the processing

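The number of called members was 1, and 0 with DESeq2, a minimum count of 30, thinned cells, equal cells per set, and without old 2, old 3 or young 1, so that leaving out 1 set gave 0 to 1. Calls over all peaks changed with the setting too. They were 1844 of 58167 in the main fit, 426 of 115227 with DESeq2 and 769 of 22788 at a minimum count of 30. In thinned cells they were 220 of 13854, with 6 members tested, and with equal cells 665 of 31004, with 8 members tested. Without old 2 they were 1075 of 54748, and without old 3 they were 776 of 58821. At an unadjusted p under 0.05, 1 member remained below the limit under DESeq2, where 13 had an adjusted p. Each of these settings except DESeq2 takes in fewer counts or peaks, but why the call was lost was not tested for any of them. Leaving out old 1, the set with the most counts, kept the call (edgeR adjusted p = 0.0205). The upstream peak kept its direction throughout. Its log2 fold change ran from -1.77 without young 2 to -0.65 without young 1, with -1.36 under DESeq2, -1.15 at a minimum count of 30 (edgeR adjusted p = 0.0597), -1.50 in thinned cells (0.461) and -1.04 with equal cells (0.164). The fit with the set number as a replicate block drops old 3, which has no partner. Its number of called members was 1, with a log2 fold change of -1.23 at the upstream peak (edgeR adjusted p = 0.0404), while the same 4 sets without the block gave -1.07 (0.187). Without peaks under 300 bp, a setting chosen after the data were seen, the upstream peak was again called, at -1.23.

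The peak in the +23 window changed sign, at 0.076 with library totals, 0.065 at a minimum count of 30, 0.020 with binarized cells, 0.32 in thinned cells and, with 1 set left out, -0.059 to 0.12. Log2 ratios of sums that changed sign were -0.18 at P1 and -0.33 for the P1 to P2 ratio with a window of 5 kb, which takes in the 3.45 kb peak, -0.14 at P2, -0.031 from P2 to the end of the gene and 1.09 in the 3′ flank in thinned cells, and -0.12 with equal cells and -0.0090 with TMM totals in the +23 window. Leaving out 1 set gave -0.15 to 0.13 for the locus. The differences in shares of cells were -4.57 points at P1 without thinning and 1.75 at P2 with deeper thinning, and with 1 set left out -4.62 to 1.85 at P2 and -5.26 to 1.40 for the locus. No such value could pass, since 3 sets against 2 cannot go below 0.1. With 1 set left out, log2 fold changes ran from 0.11 to 0.20 at P1, 0.12 to 0.28 and -0.69 to -0.27 at the larger and the narrow P2 peak, -0.72 to -0.068 at the 3.45 kb peak and 0.014 to 0.61 at the 205 kb peak. Log2 ratios ran from -0.53 to -0.18 between the promoters, 0.076 to 0.47 from P2 to the end of the gene and -0.74 to -0.24 upstream. A young set left out leaves 1, which the edgeR fit assumes to vary like the old sets.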
